A study of Mus musculus with 16 samples.

Results

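RNA-Seq counts were examined for 10 genes of the disease-associated microglia state in CD11b+ brain cells of healthy mice, malnourished mice, and malnourished mice exposed to gut bacteria. The 10 genes, Trem2, Tyrobp, Apoe, Cst7, Lpl, Spp1, Itgax, Clec7a, Axl, and Gpnmb, were taken by name from a table of 24421 genes. CD11b is a surface integrin of microglia and other myeloid cells, and CD11b+ cells were enriched on magnetic columns after dissociation of brain tissue. Cortical tissue is named in the sample labels, whereas the methods of the study start from whole cerebra. All mice were C57BL/6J females, newly weaned at the start of the diets. CON mice (n = 4) received a standard chow and MAL mice (n = 5) an isocaloric diet low in protein and fat, both with gavages of buffer. MAL-BG mice (n = 7) received the low-protein, low-fat diet together with gavages of an E. coli and Bacteroidales mix, given some weeks into a diet that lasted about a month. No group received the bacteria on the standard chow. By treatment, MAL-BG and MAL mice differed in the bacteria alone, on the deficient diet. MAL-BG and CON mice differed in both diet and bacteria, which cannot be told apart in that comparison. No library could be assigned to a batch, so batch differences between the groups could not be examined.

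Disease-associated microglia were defined in models of neurodegeneration, where microglia near plaques or damaged tissue lower their resting genes and raise genes for phagocytosis, lysosomal digestion, and lipid metabolism. The transition depends in part on TREM2, a surface receptor for lipids and lipoproteins that signals through the adaptor TYROBP (DAP12) and the kinase SYK. The other members are a lipoprotein (Apoe), a lipase (Lpl), a protease inhibitor (Cst7), a secreted matrix protein (Spp1), an integrin chain (Itgax, CD11c), a receptor for fungal glucans (Clec7a, Dectin-1), a receptor tyrosine kinase for apoptotic cells (Axl), and a glycoprotein of lysosome-rich macrophages (Gpnmb).

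Levels are given as CPM (counts relative to library size) on library sizes scaled by the TMM method, and differences as log2 fold changes with standard errors from edgeR's quasi-likelihood test. A gene was called when its Benjamini-Hochberg adjusted p was under 0.05 and its log2 fold change exceeded 0.58 in size. Libraries are numbered as in the deposited table, with a library per mouse, and p-values measure the spread between these mice. Totals were 10312703 to 13461574 counts in CON, 10864121 to 12819982 in MAL, and 14191791 to 18705202 in MAL-BG, so every MAL-BG library was deeper than the rest. Microglia markers were abundant throughout, and their sum over 11 genes was 17294 to 28244 CPM in CON, 17929 to 30570 in MAL, and 37514 to 51567 in MAL-BG. Choroid plexus markers moved the other way, with a sum over 12 genes of 14008 to 54386, 6501 to 42773, and 1782 to 16681 CPM in the same order of groups. In such bulk samples, fewer cells of a type and less RNA per cell cannot be told apart.

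In GRCm38 coordinates of GENCODE vM21, Tyrobp lies at chr7:30413760-30417585 and Itgax at chr7:128129547-128150657 on the plus strand, and Apoe at chr7:19696109-19699188 and Axl at chr7:25757273-25788705 on the minus strand. Spp1 lies at chr5:104435118-104441050 and Gpnmb at chr6:49036546-49070929 on the plus strand, and Clec7a at chr6:129461591-129472779 on the minus strand.

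Promoter sequence from RefSeq (GRCm38.p6) was matched for 8 of the 10 genes, in 12 windows because some genes have several starts. The 150 bases upstream of a start are shown for Trem2 and Cst7, which rose in MAL-BG mice. They are also shown for Spp1, Itgax, and Axl, which did not pass the test. Capitals mark GAGGAAG, a form of the site read by PU.1, an ETS factor of myeloid cells, or the pattern TGANTCA, on either strand. N stands for any base, so the pattern includes the letters read by AP-1 but is wider than them.
Trem2, chr17:48346251-48346400, plus strand: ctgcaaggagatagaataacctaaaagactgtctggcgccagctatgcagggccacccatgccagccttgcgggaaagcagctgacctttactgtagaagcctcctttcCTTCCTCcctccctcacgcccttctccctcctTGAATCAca
Cst7, chr2:150570265-150570414, plus strand: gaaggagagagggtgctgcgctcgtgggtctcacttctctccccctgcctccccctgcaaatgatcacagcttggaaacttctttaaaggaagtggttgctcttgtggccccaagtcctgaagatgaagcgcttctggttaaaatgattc
Spp1, chr5:104434961-104435110, plus strand: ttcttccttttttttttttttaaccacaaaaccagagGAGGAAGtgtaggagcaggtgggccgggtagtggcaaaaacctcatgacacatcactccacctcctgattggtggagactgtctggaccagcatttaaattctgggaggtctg
Itgax, chr7:128129400-128129549, plus strand: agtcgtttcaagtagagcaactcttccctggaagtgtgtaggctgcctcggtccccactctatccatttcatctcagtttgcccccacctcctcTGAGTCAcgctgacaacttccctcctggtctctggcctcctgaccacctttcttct
Axl, chr7:25788734-25788883, minus strand: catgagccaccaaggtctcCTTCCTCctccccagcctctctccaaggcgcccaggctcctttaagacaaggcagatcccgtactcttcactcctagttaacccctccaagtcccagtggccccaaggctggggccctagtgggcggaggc
The Trem2 window held both motifs, with GAGGAAG on the opposite strand from position -41 and TGANTCA (as TGAATCA) from position -9, counted back from the start. GAGGAAG stood at -113 in the Spp1 window shown and, on the opposite strand, at -131 in the Axl window. TGANTCA stood at -56 in the Itgax window. A second Spp1 window, at chr5:104436042-104436191, held neither motif. Neither motif was found in the windows of Cst7, Gpnmb, Clec7a, and Apoe. Among 32851 RefSeq windows of this length, 6.85% held GAGGAAG and 4.24% held TGANTCA. The motifs therefore occurred both in a gene that rose (Trem2) and in genes that did not pass the test, and a match is only a description of letters.

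All 10 genes passed the filter on low counts. In MAL-BG versus CON mice, 3 were called higher (Trem2, Lpl, and Cst7) and 0 lower, where 11.4% of the 14565 genes tested were called higher and 21.7% lower. The same 3 genes, and 0 lower, were called in MAL-BG versus MAL mice (background 10.2% higher and 20.2% lower), a comparison that shares its 7 MAL-BG libraries with the first. Of all genes tested, 8.17% were called higher in both. Over the 10 genes the log2 differences had a median of 0.07 (MAL-BG minus CON) and -0.04 (MAL-BG minus MAL), beside -0.04 and -0.03 for all genes tested. Per kilobase of exon (RPKM), Apoe was the most abundant member in CON at 1659 ± 438 (SD, n = 4), before Tyrobp at 1071 ± 92.9 and Trem2 at 661 ± 166, and the ranges of these neighbors did not overlap. In MAL-BG the leading gene was Trem2 at 1614 ± 369 (SD, n = 7), with ranges that overlapped those of Apoe at 1519 ± 346, which in turn overlapped those of Tyrobp at 1086 ± 389. The remaining members stood far lower in every group, from 22.1 ± 4.78 RPKM for Clec7a down to 0.885 ± 0.436 for Gpnmb in CON, and from 23.7 ± 4.21 for Lpl down to 0.339 ± 0.274 for Gpnmb in MAL-BG.

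**Figure D1:**
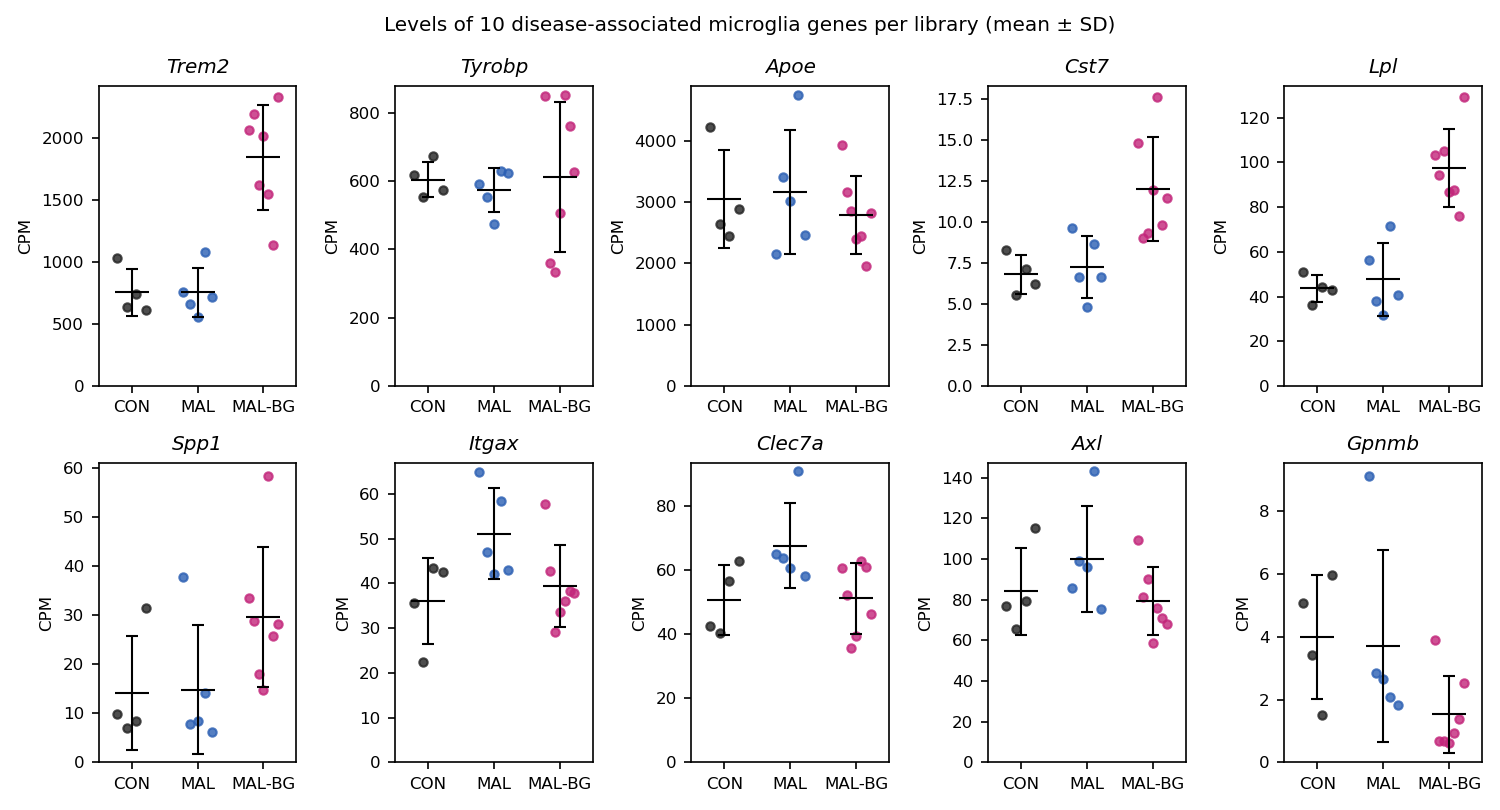
CPM of the 10 genes in each library (points) with group mean ± SD (bars) for CON (n = 4), MAL (n = 5), and MAL-BG (n = 7), each panel on its own linear axis from 0. The MAL-BG libraries sit above all others for Trem2 (1137 to 2331 CPM) and Lpl (75.9 to 129 CPM), and overlap them for the other 8 genes.

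Trem2 rose in MAL-BG mice to more than its level in any other library. The gene, at chr17:48346401-48354147 on the plus strand, had 1029, 639, 742, and 613 CPM in the CON libraries and 759, 661, 554, 1080, and 718 CPM in the MAL libraries. MAL-BG libraries ranged from 1137 to 2331 CPM with a median of 2020. All 7 MAL-BG libraries thus lay above all 9 CON and MAL libraries, as did 6.17% of all genes tested. The difference was 1.29 ± 0.223 (log2, SE) against CON, a 2.44-fold rise (adjusted p = 0.000325), and 1.29 ± 0.206 against MAL (adjusted p = 0.000183). It ranged from 1.20 to 1.47 and from 1.20 to 1.45 when each library was left out in turn.

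Tyrobp, the adaptor that TREM2 needs to signal, was not called in any comparison. Its CON libraries had 618, 554, 672, and 573 CPM, and its MAL libraries 590.3, 553, 473, 629.7, and 624 CPM. In MAL-BG it spread from 333.5 to 852 CPM with a median of 625, so that 3 libraries lay above all CON libraries and 3 below. The coefficient of variation was 35.8% in MAL-BG against 8.68% in CON and 11.2% in MAL, and the group means differed by 0.02 ± 0.227 on the log2 scale from CON (adjusted p = 0.95) and 0.09 ± 0.213 against MAL (adjusted p = 0.743). An effect of up to 0.47 (log2, 2 standard errors above the estimate) against CON was within its error.

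The ratio of Trem2 to Tyrobp counts, each per exonic length, does not depend on how libraries are scaled. It was 0.821, 0.569, 0.545, and 0.528 in CON, 0.635, 0.59, 0.578, 0.847, and 0.568 in MAL, and 0.738 to 3 in MAL-BG with 6 of 7 libraries above every CON and MAL library. On the log2 scale the mean was 0.625 ± 0.753 (SD, n = 7) in MAL-BG, -0.723 ± 0.296 (n = 4) in CON, and -0.653 ± 0.239 (n = 5) in MAL. The difference of 1.35 against CON had a two-sided exact permutation p of 0.0121 (adjusted over 3 comparisons 0.0182), and that of 1.28 against MAL a p of 0.00505 (adjusted 0.0152). MAL and CON differed by 0.07 (exact permutation p = 0.587). This ratio was chosen after the values of both genes had been seen.

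Among 27 genes of the signaling route below TREM2 and TYROBP, 7 were called higher and 1 lower in MAL-BG versus CON mice, with a median of 0.23. The background over all genes tested was 11.4% higher and 21.7% lower. The largest rise was that of Lat2, an adaptor of this route (1.31 ± 0.291, adjusted p = 0.00188), and the gene called lower was Cbl, a ubiquitin ligase that ends receptor signaling (-1.74 ± 0.278, adjusted p = 0.000185). Hcst (DAP10), the other adaptor that can pair with TREM2, rose to 12.4 ± 3.31 CPM in MAL-BG (SD, n = 7) over 7.07 ± 1.67 CPM in CON (n = 4) (0.81 ± 0.25, adjusted p = 0.0147). Of 8 lymphocyte markers tested, 4 were called higher and 0 lower in the same comparison. The part of lymphocytes in the Hcst values was not tested. The kinase Syk (-0.20 ± 0.194, adjusted p = 0.415), its target Plcg2 (0.06 ± 0.203, adjusted p = 0.829), and the related ITAM adaptor Fcer1g (0.29 ± 0.194, adjusted p = 0.238) were not called. Adam10 and Adam17, proteases that cut TREM2 from the cell surface, rose by 0.73 ± 0.109 (adjusted p = 0.000111) and 0.64 ± 0.125 (adjusted p = 0.000773) on the log2 scale. Against MAL, 4 genes of this list were called higher and 4 lower (background 10.2% higher and 20.2% lower). Adam17 (0.48 ± 0.116, adjusted p = 0.00352) fell short of the fold threshold there. The count against CON depended on the scaling. It was 0 higher and 18 of 27 lower relative to the summed counts of microglia markers, where 76.8% of all genes tested were called lower. It was 11 higher and 1 lower with mean log2 CPM scaling and a correction for gene length and GC content. Of all 14565 genes, 3182 were called higher and 2318 lower in that setting.

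**Figure D2:**
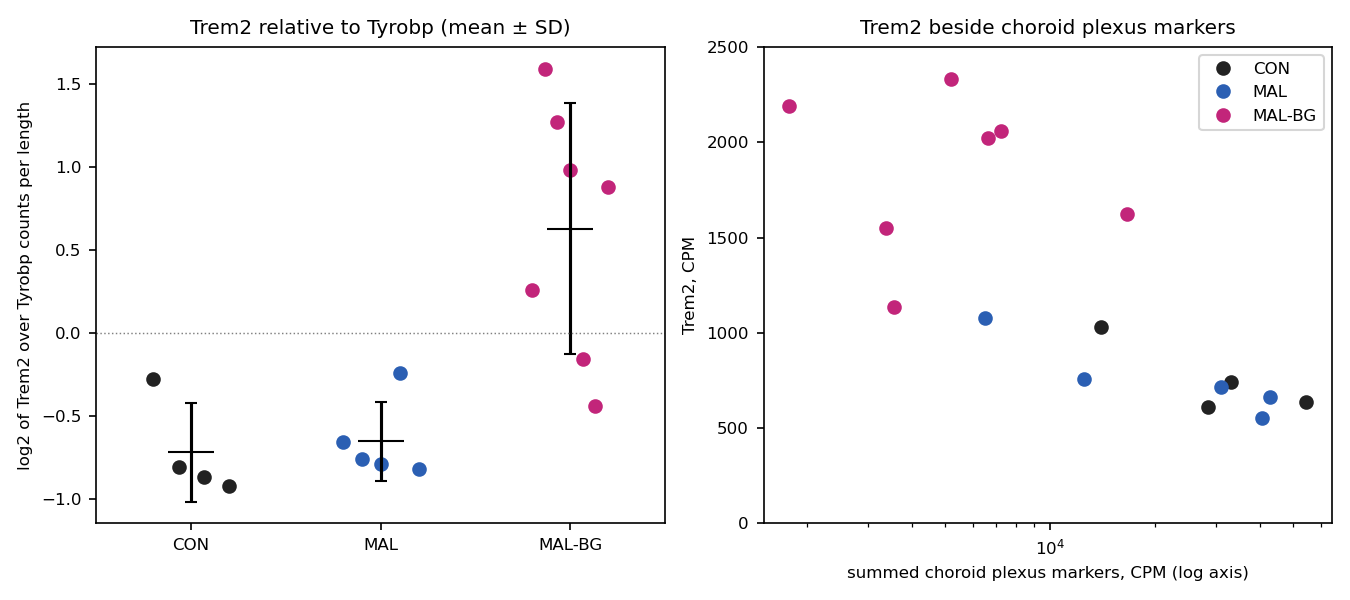
Left, log2 of Trem2 over Tyrobp counts per exonic length in each library with mean ± SD by group. Right, Trem2 CPM against summed choroid plexus markers (CPM, log axis), where MAL-BG libraries stand above CON and MAL libraries also where their marker sums overlap. The part of choroid plexus cells in the Trem2 values was not tested.

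Lpl, which encodes the lipase that frees fatty acids from lipoproteins, rose in MAL-BG mice. At chr8:68880491-68907448 on the plus strand, it had 51.1, 36.1, 44.4, and 42.8 CPM in CON and 56.5, 37.9, 31.8, 71.6, and 40.5 CPM in MAL. MAL-BG libraries held 75.9 to 129 CPM with a median of 94.3, all 7 above the other 9. The difference came to 1.16 ± 0.201 (log2, SE) from CON, a 2.24-fold rise (adjusted p = 0.000319), and 1.03 ± 0.184 against MAL (adjusted p = 0.000415). Lmf1, a maturation factor that folds lipases, was also called higher (0.80 ± 0.177 against CON, adjusted p = 0.00189), while Angptl4, an inhibitor of the lipase, was near 4 CPM in each group and not called (0.20 ± 0.334, adjusted p = 0.654). Gpihbp1, which anchors the lipase on capillaries, did not pass the filter on low counts.

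Apoe, the main lipid carrier of the brain, was not called in any comparison. Libraries of CON had 4225, 2639, 2445, and 2888 CPM and those of MAL 2158, 3408, 3018, 4750, and 2460 CPM. The MAL-BG range of 1948 to 3927 CPM, with a median of 2817, overlapped both. Differences were -0.13 ± 0.226 against CON (adjusted p = 0.671) and -0.18 ± 0.211 against MAL (adjusted p = 0.51), and the estimate against CON spans -0.58 to 0.32 at 2 standard errors.

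In the wider lipid handling list, 5 of 32 genes tested were called higher and 6 lower in MAL-BG versus CON mice, with a median of -0.03. The shares over all genes tested were 11.4% higher and 21.7% lower. Abcg1, a transporter that passes cholesterol to lipoproteins, rose the most, from 108 ± 24.6 CPM (SD, n = 4) to 230 ± 34.5 CPM (n = 7), by 1.10 ± 0.155 (adjusted p = 7.43e-05). Abca1, which loads lipid onto APOE, was not called (0.15 ± 0.13, adjusted p = 0.349). Of the receptors that take up APOE particles, Vldlr fell (-2.66 ± 0.455, adjusted p = 0.000291), and Lrp1 at -0.33 ± 0.137 missed the threshold (adjusted p = 0.0566). Vldlr was low in MAL-BG at 5.62 ± 3.84 CPM. All 12 choroid plexus markers were called lower in the same comparison, and their part in these falls was not tested.

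Cst7 rose from a low level. It encodes cystatin F, an inhibitor of lysosomal cathepsins, and lies at chr2:150570415-150578944 on the plus strand. CON libraries had 8.29, 5.57, 7.09, and 6.21 CPM and MAL libraries 9.62, 6.64, 4.82, 8.62, and 6.61 CPM. MAL-BG libraries spread from 9.04 to 17.6 CPM with a median of 11.4, and all 7 lay above every CON library and 5 above every MAL library. The rise was 0.82 ± 0.229 against CON (1.77-fold, adjusted p = 0.00823) and 0.72 ± 0.211 against MAL (adjusted p = 0.0109). With correction for the length and GC content of genes it dropped to 0.47 (adjusted p = 0.093) and 0.36 (adjusted p = 0.162) and was no longer called. Lymphocyte markers (4 of 8 tested) and neutrophil markers (12 of 13) were also called higher against CON, with 0 lower. Cst7 was highest in MAL-BG library 5, which had the highest neutrophil marker sum. MAL-BG libraries 7 and 2, next in that sum, had 11.4 and 9.04 CPM of Cst7. The part of these cells in the Cst7 values was not tested.

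Beyond the members, 29 further genes of the disease-associated state were tested. In MAL-BG versus CON mice, 7 were called higher and 4 lower, with a median of 0.31 (background 11.4% higher and 21.7% lower). The risers included the cathepsins Ctsd, Ctsz, and Ctsl, the lysosomal protein Cd68, and the tetraspanin Cd9. Ctsd, a lysosomal protease, rose the most, to 13955 ± 2746 CPM in MAL-BG (SD, n = 7) over 5623 ± 986 CPM in CON (n = 4) and 5292 ± 719 CPM in MAL (n = 5), by 1.31 ± 0.19 against CON (adjusted p = 9.17e-05). Those called lower were Csf1, Fabp5, Lilrb4a, and Cd83, a surface protein of activated immune cells, which fell the most at -1.78 ± 0.283 (adjusted p = 0.000173). Against MAL, 8 were called higher and 4 lower (background 10.2% higher and 20.2% lower). The count of risers against CON moved with the processing. It was 0, with 19 of 29 lower, relative to summed microglia marker counts, where 76.8% of all genes tested were called lower. It was 3 with a correction for gene length and GC content, and 4 without CON library 2.

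Spp1 (osteopontin), a secreted ligand of integrins and CD44, was too variable to be called. CON libraries had 9.91, 6.96, 8.43, and 31.5 CPM, MAL libraries 37.6, 7.83, 8.35, 14.2, and 6.13 CPM, and MAL-BG libraries 14.7 to 58.2 CPM with a median of 28.2. All 7 MAL-BG libraries exceeded 3 of the 4 CON and 4 of the 5 MAL libraries, and CON library 4 and MAL library 1 stood apart from their groups. Its difference of 1.06 ± 0.526 (log2, SE) from CON (adjusted p = 0.112) became 1.81 (adjusted p = 0.0162) without CON library 4, and that of 1.0 ± 0.485 against MAL (adjusted p = 0.103) became 1.70 (adjusted p = 0.00768) without MAL library 1. CON library 4 also had the highest fibroblast and mural cell marker sum of its group (1248 CPM, others 237 to 689), whereas MAL library 1 at 601 CPM was the median of its group, and the part of these cells in the Spp1 values was not tested. In the annotation used here, 309 exonic bases of Spp1 are shared with Gm42793, an unclassified transcript on the same strand, so reads there could be lost or split in counting.

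Receptors for osteopontin moved unevenly. Itgb3 rose to 158 ± 24.2 CPM in MAL-BG (SD, n = 7) over 65.8 ± 19.4 CPM in CON (n = 4), by 1.27 ± 0.177 (adjusted p = 7.02e-05), the largest rise among 14 adhesion genes. Its partner chain Itgav (0.57 ± 0.109, adjusted p = 0.000693) fell short of the fold threshold, and Itgb1 (0.24 ± 0.121, adjusted p = 0.116) and Cd44 (-0.08 ± 0.302, adjusted p = 0.853) were not called. Icam1, the endothelial and myeloid ligand of leukocyte integrins, fell the most (-2.09 ± 0.239, adjusted p = 1.39e-05). Across the list, 2 genes were called higher and 5 lower against CON, beside 11.4% higher and 21.7% lower over all genes tested.

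Itgax, the CD11c chain that marks disease-associated microglia and dendritic cells, had its highest mean in MAL. CON libraries had 35.7, 22.4, 43.5, and 42.5 CPM, MAL libraries 64.9, 47.0, 42.1, 58.5, and 43.0 CPM, and MAL-BG libraries 29.0 to 57.7 CPM with a median of 37.8. The groups overlapped, although 3 of 5 MAL libraries exceeded every CON library. Itgax was not called against CON (0.12 ± 0.198, adjusted p = 0.632) or against MAL (-0.38 ± 0.182, adjusted p = 0.101), and its partner chain Itgb2 was not either (0.22 ± 0.256 against CON, adjusted p = 0.515). Dendritic cell markers summed to 2001 to 3827 CPM in CON, 2588 to 5051 in MAL, and 3610 to 6791 in MAL-BG, mostly through Sirpa, which microglia also express (means of 1630, 1757, and 4087 CPM). Without regard to abundance, 2 of the 11 dendritic markers tested were called higher and 4 lower against CON (median -0.75), and 1 was called higher and 9 lower against MAL (median -1.03). Cd74 and H2-Ab1, both of antigen presentation, had their highest means in MAL as Itgax did, at 684, 1010, and 611 CPM and 303, 458, and 278 CPM in CON, MAL, and MAL-BG. These markers were named after their values were seen, and the part of dendritic cells in the Itgax values was not tested.

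Clec7a, which senses beta-glucans and signals through SYK and CARD9, had its group means in the same order as Itgax. CON libraries had 42.5, 40.4, 56.6, and 63.0 CPM, MAL libraries 65.0, 63.7, 60.7, 90.9, and 58.3 CPM, and MAL-BG libraries 35.6 to 62.9 CPM with a median of 52.2. MAL and MAL-BG overlapped, with 4 of 7 MAL-BG libraries below every MAL library. The change was 0.02 ± 0.179 against CON (adjusted p = 0.947) and -0.40 ± 0.166 against MAL (adjusted p = 0.0574). Card9 was not called (0.07 ± 0.201 against CON, adjusted p = 0.798). The annotation used here classes Clec7a as a polymorphic pseudogene.

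Axl, a TAM receptor that binds dying cells through the bridging ligand GAS6, was not called. CON libraries had 77.2, 65.5, 79.3, and 115 CPM, MAL libraries 85.8, 99.2, 96.0, 143, and 75.3 CPM, and MAL-BG libraries 58.6 to 109.5 CPM with a median of 75.7, so all groups overlapped. MAL-BG differed by -0.09 ± 0.191 from CON (adjusted p = 0.728) and -0.33 ± 0.178 against MAL (adjusted p = 0.135). Of 6 other genes of the TAM system, 2 were called higher against CON (Pros1 and Itgb5) and 1 lower (Tyro3). The background was 11.4% higher and 21.7% lower. Pros1, a bridging ligand used mainly by the other TAM receptors, rose to 526 ± 71.5 CPM in MAL-BG (SD, n = 7) over 242 ± 50.2 CPM in CON (n = 4) (1.12 ± 0.164, adjusted p = 9.67e-05), whereas Gas6 did not pass the test (-0.16 ± 0.151, adjusted p = 0.415). Tyro3 fell (-1.99 ± 0.402, adjusted p = 0.000986) to 4.34 ± 2.12 CPM in MAL-BG. Mertk, the main TAM receptor of resting microglia, was at -0.97 ± 0.437 (adjusted p = 0.0799), with a MAL-BG level of 194 ± 164 CPM whose SD nearly equaled its mean.

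Gpnmb was the rarest member, with 5.07, 3.43, 1.50, and 5.98 CPM in CON and 9.11, 2.83, 2.67, 2.10, and 1.83 CPM in MAL. In MAL-BG it ranged from 0.623 to 3.89 CPM with a median of 0.922, and 5 of 7 libraries lay below every CON library and every MAL library. Counts per library were 9 to 66 in MAL-BG and 19 to 107 in the other groups, so counting error is large here. Its difference of -1.38 ± 0.557 against CON (adjusted p = 0.0528) and -1.27 ± 0.53 against MAL (adjusted p = 0.061) just missed the threshold. DESeq2 called both (-1.37, adjusted p = 0.0391, and -1.25, adjusted p = 0.0444). Without MAL library 1 the difference from MAL was only -0.62, and without MAL-BG library 1 the differences were -1.78 (adjusted p = 0.0144) against CON and -1.68 (adjusted p = 0.0158) against MAL, both called.

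Of the MiT/TFE factors that drive lysosomal genes and Gpnmb, Tfeb rose (0.78 ± 0.145, adjusted p = 0.000557), and Mitf (-0.23 ± 0.141, adjusted p = 0.19) and Tfe3 (0.19 ± 0.133, adjusted p = 0.25) were not called. Among 22 transcription factors of microglia and their states, 4 were called higher and 2 lower against CON, with a median of 0.17 (background 11.4% higher and 21.7% lower). Maf, a factor of mature macrophages, rose the most (0.80 ± 0.18, adjusted p = 0.00209), and Bhlhe40, a factor tied to the disease-associated state, fell the most (-1.93 ± 0.254, adjusted p = 4.42e-05).

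**Figure D3:**
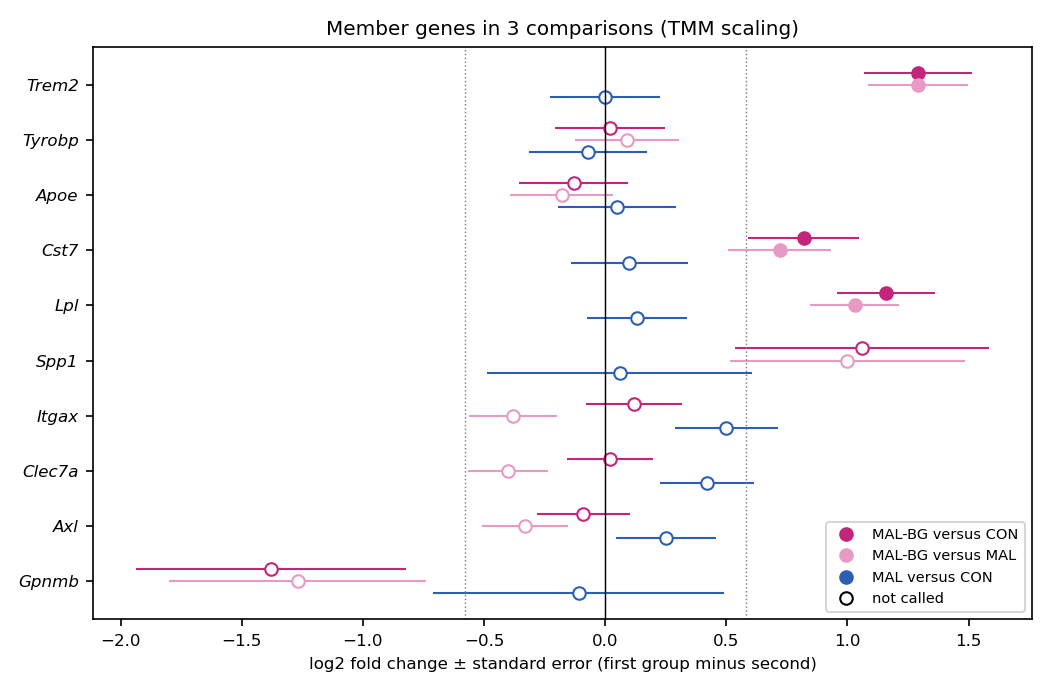
Log2 fold change ± standard error of the 10 genes in 3 comparisons, with filled points for genes called and dotted lines at ± 0.58. Trem2, Lpl, and Cst7 are the filled points, in both MAL-BG comparisons, and 0 genes are filled in MAL versus CON.

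MAL and CON mice, which by treatment differed in the diet alone, were also compared. None of the 10 genes was called, as was the case for all 14565 genes (0% called by edgeR and 0 by DESeq2, with 212 genes or 1.46% at an unadjusted p under 0.05). Itgax at 0.50 ± 0.212 (unadjusted p = 0.0304, adjusted p = 0.999) and Clec7a at 0.42 ± 0.193 (unadjusted p = 0.0437, adjusted p = 0.999) had the largest estimates, followed by Axl at 0.25 ± 0.206. Trem2 was nearly equal, at 755 ± 198 CPM (SD, n = 5) in MAL and 756 ± 190 CPM (n = 4) in CON. The interval of 2 standard errors around the Trem2 difference ran from -0.46 to 0.45, so changes of that size could not be detected here.

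Resting, or homeostatic, microglia genes are lowered in the disease-associated state. Here, 12 of 25 were called higher in MAL-BG versus CON mice and 1 lower, with 22 estimates above 0 and a median of 0.58. The background under TMM was 11.4% higher and 21.7% lower. Cx3cr1, the fractalkine receptor of microglia, named here after its values were seen, was at 3075 ± 908 CPM in CON (SD, n = 4) and 7720 ± 2347 CPM in MAL-BG (n = 7), a rise of 1.33 ± 0.271 (adjusted p = 0.00105), and Gpr84, a fatty acid receptor induced on activation, was the gene called lower (-1.46 ± 0.245, adjusted p = 0.000254). Against MAL, 11 were called higher and 1 lower (background 10.2% higher and 20.2% lower). Relative to summed microglia marker counts, to which several of these genes themselves contribute, 0 were called higher and 9 of 25 lower against CON. On that scale 76.8% of all genes tested were called lower. With mean log2 CPM scaling and a correction for gene length and GC content, 19 were called higher and 1 lower. Of all 14565 genes, 3182 were called higher and 2318 lower under that scaling. The 10 members had 3 calls higher and a median of 0.07 beside this list, and the difference between the lists was not tested.

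**Figure D4:**
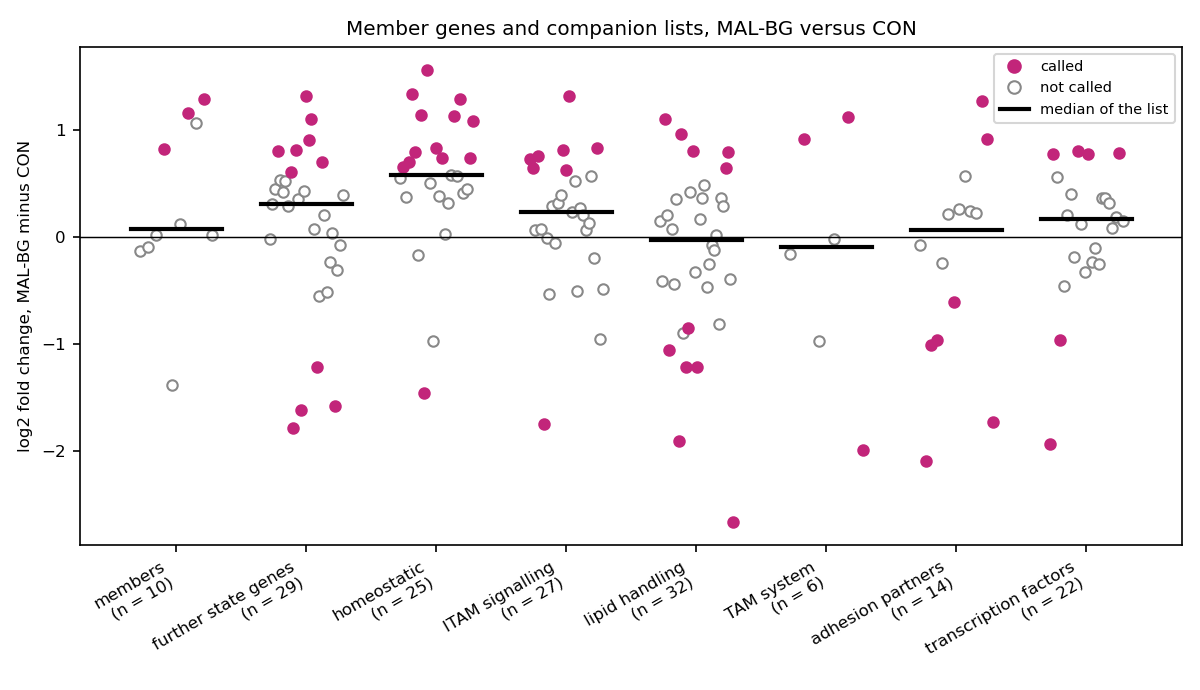
Log2 fold change (MAL-BG minus CON) of the 10 genes and of 7 companion lists, with filled points for genes called and a bar at the median of each list. Homeostatic genes have the highest median (0.58) and the 10 genes a median of 0.07.

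Because microglia markers themselves rose, the members were also scaled to the summed counts of the 11 microglia markers. Of these markers, many of them homeostatic genes, 7 of 11 were themselves called higher under TMM. On the marker scale the median of all genes moved to -1.09 against CON and -0.99 against MAL, and 41 genes were called higher and 11193 lower against CON (0.365% of calls higher, against 34.4% under TMM). Of all genes tested, 76.8% were called lower against CON and 72.6% against MAL. Among the 10 genes, 0 were called higher and 6 lower in each comparison, which is not above that background. Trem2 was at 0.26 (adjusted p = 0.0926) against CON and 0.36 (adjusted p = 0.0189, under the fold threshold) against MAL, Lpl at 0.12 and 0.13, Cst7 at -0.20 and -0.19, and Spp1 at -0.09 and 0.13. Those called lower were Tyrobp (-1.04 and -0.87), Apoe (-1.16 and -1.13), Itgax (-0.95 and -1.34), Clec7a (-1.07 and -1.35), Axl (-1.18 and -1.27), and Gpnmb (-2.54 and -2.28). Relative to the median of all genes, Trem2 stood at 1.36 against CON on this scale and 1.33 under TMM. Tyrobp (0.05), Apoe (-0.07), Clec7a (0.02), and Axl (-0.09) stood close to that median against CON, so their calls on the marker scale followed the shift of all genes. The remaining companion lists shifted too, with 0 called higher against CON in each and 25 lower for lipid handling, 16 for transcription factors, 11 for adhesion, and 4 for the TAM system.

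**Figure D5:**
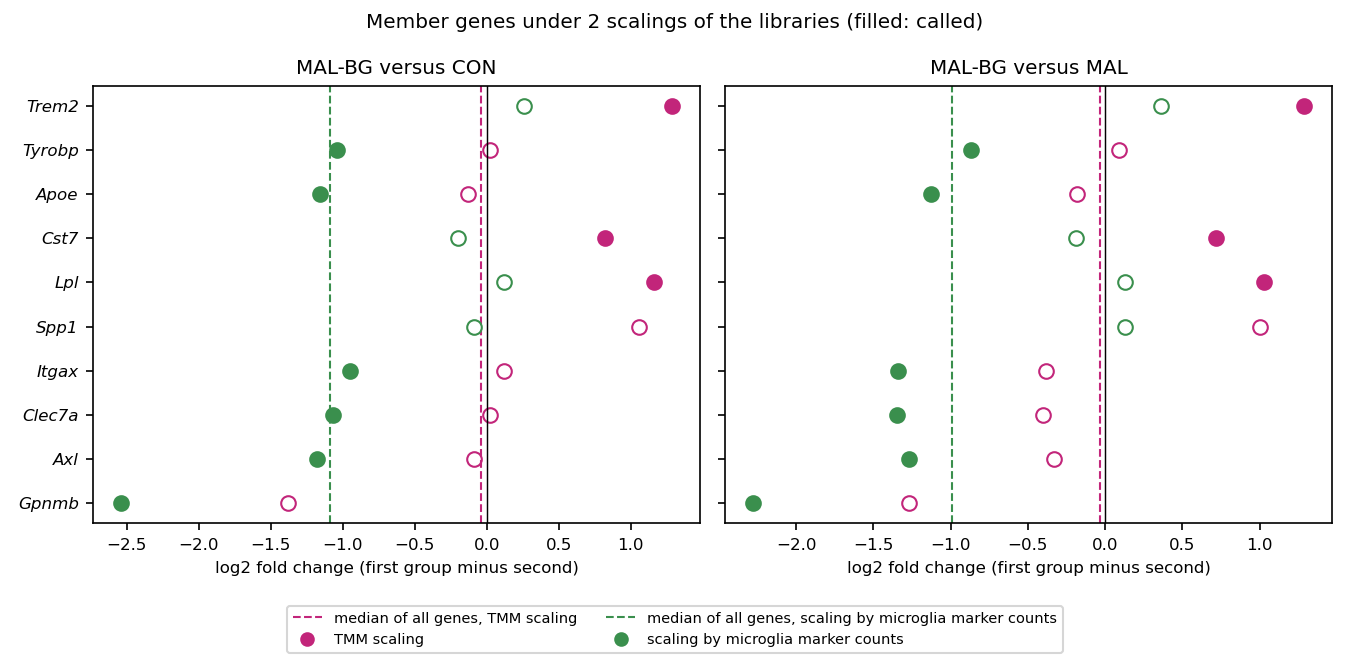
Log2 fold change of the 10 genes under TMM scaling and under scaling by microglia marker counts, for MAL-BG versus CON (left) and MAL-BG versus MAL (right), with filled points for genes called and dashed lines at the median of all genes. Scaling by microglia markers shifts all 10 genes down by about the shift in the median of all genes, from -0.04 to -1.09 against CON.

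Other cells in the CD11b+ fraction differed between groups. Neutrophil markers (13 genes) summed to 490 to 1230 CPM in CON, 522 to 1104 in MAL, and 607 to 15032 in MAL-BG, with MAL-BG libraries 2, 5, and 7 above every other library. Leaving out those libraries, a choice made after seeing the data, kept all 3 calls against CON. Trem2 was at 1.25 (adjusted p = 0.00353), Lpl at 1.16 (adjusted p = 0.00322), and Cst7 at 0.83 (adjusted p = 0.0239). The MAL-BG libraries kept had neutrophil marker sums of 1126, 607, 952, and 919 CPM, within the CON range. Mmp9, named after its values were seen, had at least 13.5 CPM in every MAL-BG library, against at most 9.37 in CON and 10.4 in MAL. It was the only neutrophil marker without overlap. S100a8, for example, had a minimum of 49.9 CPM in MAL-BG and a maximum of 66.4 in MAL. The part of neutrophils in the 3 calls was not tested by this step. Choroid plexus sums overlapped between groups in a few libraries. CON library 1 (14008 CPM of markers) and MAL library 4 (6501) had 1029 and 1080 CPM of Trem2, while MAL-BG library 3 (16681) had 1625 and MAL-BG library 4 (6645) had 2020. Lpl in these libraries was 51.1 and 71.6 CPM in CON and MAL against 105 and 86.6 CPM in MAL-BG. Microglia marker sums differed in them too, at 28244 and 30570 CPM in CON and MAL against 37514 and 45274 in MAL-BG. The part of choroid plexus cells in the Trem2 and Lpl values was not tested. Among CON and MAL libraries, the highest Trem2 levels were in CON library 1 and MAL library 4, the lowest choroid plexus sums of their groups.

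Further marker sums moved with the groups as well. Lymphocyte markers reached 82.7 to 191 CPM in MAL-BG against 37.8 to 61.2 in CON, while neuron markers fell to 19.4 to 85.3 CPM from 54.8 to 263, and astrocyte markers were 175 to 345 CPM in MAL-BG and 307 to 687 in CON. Endothelial markers were 1409 to 4365 CPM in MAL-BG and 683 to 2352 in CON, and monocyte markers 525 to 1823 and 1284 to 2315. Border macrophage sums overlapped fully, at 917 to 1424 CPM in MAL-BG within the 860 to 2418 of CON, and oligodendrocyte sums were 553 to 1294 and 451 to 1129. The part of these cells in the member values was not tested.

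Levels of the most abundant markers are given as group means. Those in CON, MAL, and MAL-BG were 23106, 19054, and 4746 CPM for Ttr and 7522, 6034, and 1275 for Enpp2, both of choroid plexus. For microglia, Csf1r stood at 5124, 5248, and 6607 CPM. Neutrophil S100a9 went from 46.4 and 61.6 to 861 CPM, whereas Csf3r, which microglia also express, was at 605, 588, and 458. Lymphocyte Gzma and Nkg7 reached 95.2 and 23.4 CPM in MAL-BG over 23.1 and 6.63 in CON, and neuronal Snap25 and Eno2 dropped to 4.74 and 5.42 from 59.2 and 40.1. In the same CON to MAL-BG order, astrocyte Slc1a2 and Slc1a3 were at 119 to 23.9 and 113 to 98.1 CPM, endothelial Cldn5 and Flt1 at 253 to 758 and 199 to 218, and monocyte Nr4a1 and Ace at 993 to 392 and 349 to 80.7. Border macrophage Stab1 and Mrc1 were at 896 to 809.8 and 124 to 124, oligodendrocyte Mbp at 426 to 435, dendritic Sirpa and Cd74 at 1630 to 4087 and 684 to 611, and mural Acta2 and Vtn at 150.3 to 279.6 and 159 to 156 CPM.

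The genes with patterns most like the members across the 16 libraries were found from log2 CPM values centered on each gene's mean, by root mean square distance. Trem2 was closest to C1qa, a complement gene of microglia, at a distance of 0.10, then to the cathepsin Ctsf and the calcium channel Orai1, both at 0.12. Lpl was closest to AI467606, Serpine2, and Serpinf1, each at 0.17, and Cst7 to Cyb561a3 and Gp9, both at 0.19, and Tmem100 at 0.21. Itgax had Ms4a6c at 0.22 and Clec4a1 and Clec7a at 0.23, and Ms4a6c was also the nearest gene of Clec7a at 0.13. Clec7a then had Phf11b and Rap2b, both at 0.19. Tyrobp was closest to Scpep1 at 0.13 and to Map2k1 and D6Wsu163e at 0.15. Apoe was closest to Snhg1 at 0.23 and to Atxn7l2 and Galt at 0.24, and Axl to Dnase1l1 at 0.22 and to Hscb and Sulf2 at 0.24. Spp1 was closest to Tnfsf14 and Nusap1 at 0.63 and Zfp85 at 0.64, and Gpnmb to Cd209a at 0.68, Dcstamp at 0.71, and Tcp11 at 0.72. These distances grow with a member's own spread over the libraries, a root mean square of 0.98 for Spp1 and 1.04 for Gpnmb against 0.34 for Apoe and 0.32 for Axl, so they are not compared between members.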

How the data were processed

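RNA-Seq was measured in CD11b+ brain cells of 16 mice in 3 groups. From stranded poly(A) libraries, the authors aligned read pairs with STAR (GRCm38.p6), obtained a count for each gene with HTSeq, and deposited these raw counts. The mode, strand option, and annotation of the counting are not given in the sources used here. Column names give the group and a running number that matches no sample title, so groups came from the column names, and no library could be assigned to a batch. The study's DESeq2 design has a batch term beside the condition, whereas the p-values here come from models without it, and its effect on them was not tested. p-values measure the spread between these libraries.

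The analysis ran in R 4.3.3. A gene was tested if 4 or more libraries held over 10 counts of it, which left 14565 genes. The 3 groups were fitted in 1 model by quasi-likelihood in edgeR 4.0.16, with TMM scaling and Benjamini-Hochberg adjustment within each comparison over all genes tested. The log2 CPM values used a prior count of 2. RPKM used GENCODE vM21 exon lengths, and both length and GC content could be found for 14023 of the tested genes (96.3%). Ratios were compared with two-sided exact permutation tests. Scripts were tested on simulated data. Alternatives were other scalings, filters, and thresholds, DESeq2 1.42.0, offsets for length and GC content, 2-group fits, and leaving out each library.

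The 10 genes and the companion and marker lists were chosen with earlier results of these data known. All 10 genes were named. From each companion list the called genes with the largest change against CON in each direction were named, with direct partners of the members, the 3 genes most like each member, and the 2 most abundant markers of each marker list. A few genes that fall under this choice are not reported here.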

Additional observations from a re-analysis of the deposited data

Results flagged for a closer look

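Of 30 member groups tested for a library far from the rest (Dixon's criterion, which flags about 1 in 20 groups by chance), 4 held such a library. Spp1 had 31.5 CPM in CON library 4, with the other CON libraries at 6.96 to 9.91, and 37.6 CPM in MAL library 1, with the others at 6.13 to 14.2. Clec7a had 90.9 CPM in MAL library 4, with the others at 58.3 to 65.0. Gpnmb had 9.11 CPM in MAL library 1, with the others at 1.83 to 2.83. MAL library 1 was thus the highest of its group for both Spp1 and Gpnmb.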

How the results depend on the processing

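The calls of Trem2 and Lpl held under every alternative run except scaling by microglia markers, where 6 members were called, 0 higher and 6 lower, in both MAL-BG comparisons (76.8% and 72.6% of all genes were called lower there), and 95 distinct companion genes were called in place of 57. Cst7 also lost its call with length and GC offsets in both comparisons (0.47 and 0.36) and, against MAL, with offsets and mean log2 CPM scaling (0.57). That scaling moved the median of all genes to 0.20 and 0.18 and the share of calls that were higher to 57.9% and 57.3%, from 34.4% and 33.4%. DESeq2 called 1 member lower in both comparisons (Gpnmb), as did length and GC offsets against MAL (Clec7a, -0.60, adjusted p = 0.00504). Leaving out each library in turn gave 0 to 1 members called lower in both comparisons. The cause of these shifts was not tested.

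Estimates that changed sign were small under TMM or followed the microglia scaling. With microglia markers, these were Tyrobp (-1.04 and -0.87), Cst7 (-0.20 and -0.19), Spp1 (-0.09), Itgax (-0.95), and Clec7a (-1.07) in MAL-BG comparisons and Apoe (-0.03), Cst7 (-0.01), Lpl (-0.01), and Spp1 (-0.22) in MAL versus CON. With length and GC offsets they were Tyrobp (-0.30 and -0.24), Clec7a (-0.26), and Axl (0.0034) against CON or MAL, and Trem2 (0.06) in MAL versus CON. Adding mean log2 CPM scaling gave Tyrobp -0.04 and -0.01, Apoe 0.01, and Axl 0.25, and Trem2 0.09 in MAL versus CON. Upper-quartile scaling gave Clec7a -0.0048 against CON and Trem2 0.01 in MAL versus CON, and the latter was also 0.01 in the 2-group fit and without the neutrophil-rich libraries, where Axl was 0.05 against CON. Leave-one-out ranges that crossed 0 against CON were -0.09 to 0.18 (Tyrobp), -0.22 to 0.07 (Apoe), -0.05 to 0.23 (Itgax), -0.08 to 0.14 (Clec7a), and -0.19 to 0.10 (Axl). Against MAL they were -0.01 to 0.24 (Tyrobp) and -0.29 to 0.02 (Apoe). For MAL versus CON they were -0.17 to 0.18 (Trem2), -0.14 to 0.25 (Apoe), -0.03 to 0.21 (Cst7), -0.06 to 0.24 (Lpl), -0.64 to 0.81 (Spp1), and -0.76 to 0.15 (Gpnmb). No paired analysis was possible because the running numbers of the columns match no sample title. Gpnmb had 9 to 107 counts per library, so counting error is large there.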
